A study of Sus scrofa with 9 samples.

Results

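Mitochondrial ribosomal protein genes were followed across 9 donor hearts of a porcine model of donation after circulatory death. The genes were every named row of the expression table whose symbol begins with MRPL or MRPS followed by a digit, which gave 38 of 25149 rows. Of these, 36 reached a TPM of at least 1 in at least 3 hearts and were among the 11782 genes tested, whereas MRPL27 and MRPL55 did not. TPM are read counts corrected for gene length and scaled to the same total in every heart, so that levels of different genes can be set side by side.

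The mitochondrial ribosome, or mitoribosome, is the machine inside mitochondria that translates the few messenger RNAs of the mitochondrial genome, all of which encode subunits of the respiratory chain and of ATP synthase. Its proteins are encoded in the nucleus, made in the cytosol and imported, and they join mitochondrially encoded ribosomal RNA to form a large subunit, which carries the MRPL proteins and joins amino acids into chains, and a small subunit, which carries the MRPS proteins and reads the messenger RNA. Some members descend from proteins of the bacterial ribosome and others were added in mitochondria. Heart muscle, which lives on oxidative phosphorylation, is rich in mitochondria.

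All hearts came from female Yorkshire pigs of 4 to 6 months and underwent 15 min of warm ischemia. Group 1 (NRP + HOPE 24 h, pigs 27, 28 and 30) and Group 2 (NRP + SCS 2 h, pigs 24, 25 and 29) received NRP (normothermic regional perfusion, a circulation of warm blood through the organs while they are still in the donor) for 60 min, whereas Group 3 (No NRP + HOPE 2 h, pigs 31, 33 and 34) received none. Storage was hypothermic oxygenated perfusion (HOPE) at 8 °C for 24 h in Group 1 and for 2 h in Group 3, and static cold storage (SCS) at 4 °C for 2 h in Group 2. Per the study's methods, the HOPE perfusate held packed red blood cells and insulin, whereas SCS hearts were submerged in storage solution. Every heart was then perfused warm by normothermic machine perfusion (NMP) for 2 h, and 1 apex biopsy per heart was flash frozen at its end. Storage method, duration and temperature therefore changed together between Groups 1 and 2, NRP, storage method and storage temperature changed together between Groups 3 and 2, and the effects of these steps cannot be told apart.

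The labels name cardiomyocytes, but the RNA came from whole biopsies, and endothelial, fibroblast and macrophage markers were measured in every heart beside the cardiomyocyte markers. All 6 cardiomyocyte markers found in the table (TNNT2, MYH7, ACTC1, TNNI3, RYR2 and ACTN2) passed the filter, and their summed TPM ranged from 18271 in pig 28 to 32718 in pig 30. The sequencing depth of the hearts is unknown, because TPM keep no depth. In such bulk samples a smaller number of cells of a type and less RNA per cell cannot be told apart.

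In the 9 hearts the mitoribosomal genes were transcribed at moderate and unequal levels. Their median TPM was 21.6 against 6.78 over all genes tested, and was below the medians of the nuclear-encoded respiratory chain genes (259 TPM) and of the cytosolic ribosomal protein genes (524 TPM), which build the ribosome outside mitochondria. The large subunit (25 genes tested, MRPS18A included, which sits in the large subunit despite its name) and the small subunit (11 genes tested) had medians of 21.9 and 21.4 TPM. Members with a bacterial counterpart had a median of 21.9 TPM (23 genes) and those found in mitochondria alone one of 15.5 TPM (13 genes).

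The top of the order was held by 5 genes. MRPL24, a large subunit protein with a bacterial counterpart, averaged 94.4 TPM over the 9 hearts, MRPS6, a small subunit protein of bacterial descent, 87.5 TPM, and MRPL28, again of the large subunit, 77.1 TPM. MRPS26 and MRPL38, both without a bacterial counterpart, followed with 75.3 and 65.4 TPM. These 5 genes together held 36.5% to 43.5% of the summed TPM of the 36 members tested in each heart. The first of them were not apart beyond the spread between hearts. MRPL24 had 91.5, 107 and 86.6 TPM in Group 2, 79.9, 66.6 and 135 TPM in Group 1 and 87.3, 80.7 and 116 TPM in Group 3, and MRPS6 had 56.8, 88.8 and 79.4 TPM, 67.5, 92.1 and 114 TPM, and 95.7, 87.6 and 106 TPM. The ranges of the 2 genes overlapped in every group.

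At the bottom of the order were MRPL35 (7.95 TPM), MRPS31 (7.0 TPM), MRPS18B (3.32 TPM), MRPL19 (3.13 TPM) and MRPL49 (2.39 TPM), so that the highest member stood at 39.6 times the level of the lowest one tested. MRPS18B and MRPS18A are paralogs of a family related to bacterial protein S18, MRPS18B in the small subunit and MRPS18A in the large one, and are counted here with the proteins found in mitochondria alone. MRPS18A averaged more TPM than MRPS18B in every group (14.8, 10.4 and 12.2 TPM against 4.20, 3.26 and 2.48 TPM in Groups 1, 2 and 3). The 2 genes below the filter were both of the large subunit. MRPL27 had 0.266, 0.581 and 0.871 TPM in Group 2, 0, 0.677 and 0.242 TPM in Group 1 and 0, 0 and 0.487 TPM in Group 3, and MRPL55 was listed at 0 in 8 hearts and at 0.179 TPM in pig 24.

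The members varied less between hearts than the median gene tested, about as much as nuclear-encoded respiratory chain genes and more than cytosolic ribosomal protein genes. These sets were not matched by level, and the median level of the members was above that of all genes tested. The standard deviation (SD) of log2(TPM + 1) over the 9 hearts had a median of 0.32 among the 36 members, 0.43 over all genes tested, 0.33 among nuclear-encoded respiratory chain genes and 0.19 among cytosolic ribosomal protein genes. MRPL21 (0.19), MRPS31 (0.21) and MRPL35 (0.21) varied least, and MRPL49 (0.50), MRPL10 (0.48) and MRPS18A (0.45) varied most. From the lowest to the highest heart the TPM of a member differed by a median of 2.04 times, and by more than 3 times in 2 members, MRPS18B (4.01 times) and MRPL49 (6.77 times), both among the 5 lowest genes.

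**Figure D1:**
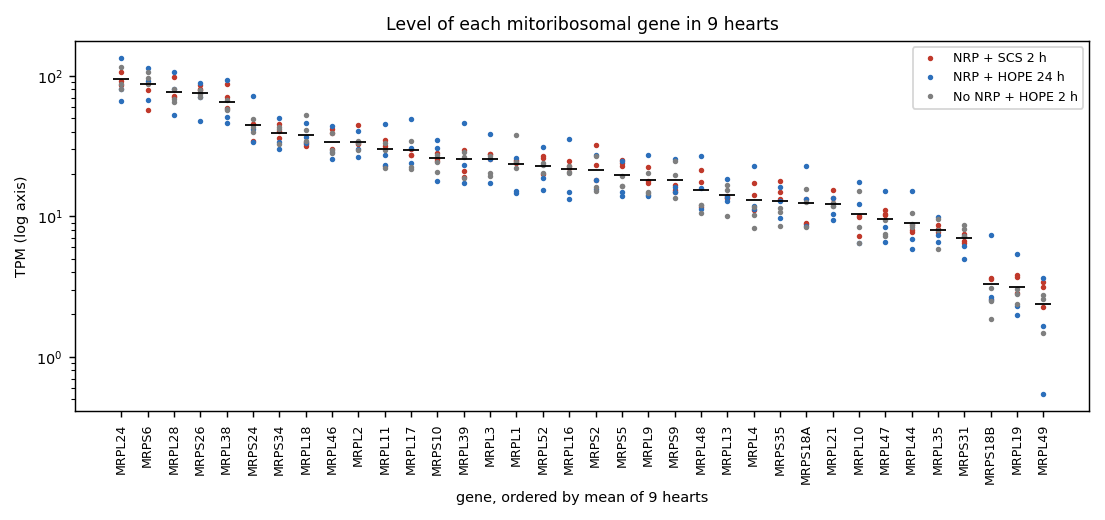
TPM (log axis) of each of the 36 mitochondrial ribosomal protein genes tested, ordered by mean level, with points for the 9 single hearts colored by group and a dash for the mean. Means run from 2.39 TPM for MRPL49 to 94.4 TPM for MRPL24, both subunits are spread along the whole order, and the points of MRPL49 are the most spread.

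The members differed more between hearts of Group 1 than between group means. Summed over the 38 genes, the mitoribosomal TPM were 986, 1121 and 951 in the Group 2 hearts (pigs 24, 25 and 29), 837, 813 and 1402 in the Group 1 hearts (pigs 27, 28 and 30) and 920, 942 and 1076 in the Group 3 hearts (pigs 31, 33 and 34). The highest and the 2 lowest hearts of the series were thus all in Group 1, with the hearts of the other groups between them. Group means were close, at 1017 ± 333 TPM in Group 1, 1020 ± 89.8 TPM in Group 2 and 980 ± 84.6 TPM in Group 3 (SD, n = 3 each), and differed by less than the spread between hearts.

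Pig 30 had the highest TPM of the 9 hearts for 28 of the 36 members (77.8%), while this heart was highest for 33.8% of all genes tested, 86.7% of nuclear-encoded respiratory chain genes and 39.4% of cytosolic ribosomal protein genes. All 36 members were above their own 9-heart mean in pig 30, as were 81.4% of all genes tested. The lowest heart was pig 28 for 13 members (36.1%, against 15.2% of all genes tested), pig 31 for 11 (30.6% against 24.8%) and pig 27 for 9 (25.0% against 29.1%), so that the shares for pigs 31 and 27 were near those of all genes. Within Group 1, pig 30 exceeded pigs 27 and 28 for all 36 members, as it did for 76.9% of all genes tested, and its TPM were a median of 1.76 times those of pig 28 (range 1.16 to 2.92). Against the Group 2 hearts, pig 30 was above all 3 for 30 members (83.3%, against 50.9% of all genes), pig 27 below all 3 for 27 (75.0% against 62.9%) and pig 28 below all 3 for 25 (69.4% against 42.1%). For 14 members (38.9% against 14.6%) all of these held at once.

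Other measures of the same libraries moved with this pattern. The 13 protein-coding genes of the mitochondrial genome, the messages that the mitoribosome translates, took 38.2% of all TPM in pig 30, the lowest share, and 55.3% and 54.7% in pigs 27 and 28, 48.5% to 52.7% in Group 2 and 44.8% to 55.0% in Group 3. Since TPM share a fixed total, a smaller mitochondrially encoded share leaves more TPM for all other genes. After removal of these 13 genes and rescaling of the rest, pig 30 was highest for 15 members rather than 28. Pig 30 also had the highest and pig 28 the lowest summed TPM of nuclear-encoded respiratory chain genes (22508 and 12154) and of cardiomyocyte markers, although this held for only 3 of the 6 single markers in either heart and TNNI3 was below its own mean in pig 30. The part of each in the mitoribosomal levels was not tested.

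The excess of pig 30 depended on the scaling. Under median-of-ratios scaling, which sets the typical gene to the same level in every heart, pigs 30 and 31 were each highest for 10 members and pig 27 for 8, and the lowest heart was pig 33 for 11. The median of the members, taken as log2 difference from each gene's own mean, went from 0.52 to 0.13 in pig 30, from -0.25 to 0.18 in pig 27 and from -0.29 to -0.17 in pig 28. The scaling factors were 1.33 for pig 30, 0.728 for pig 27, 0.771 for pig 31 and 0.905 for pig 28. Pigs 27 and 31 also had the lowest summed endothelial marker TPM (204 and 212 against 333 to 470 in the other hearts) and macrophage marker TPM (16.0 and 22.0 against 44.6 to 50.8).

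**Figure D2:**
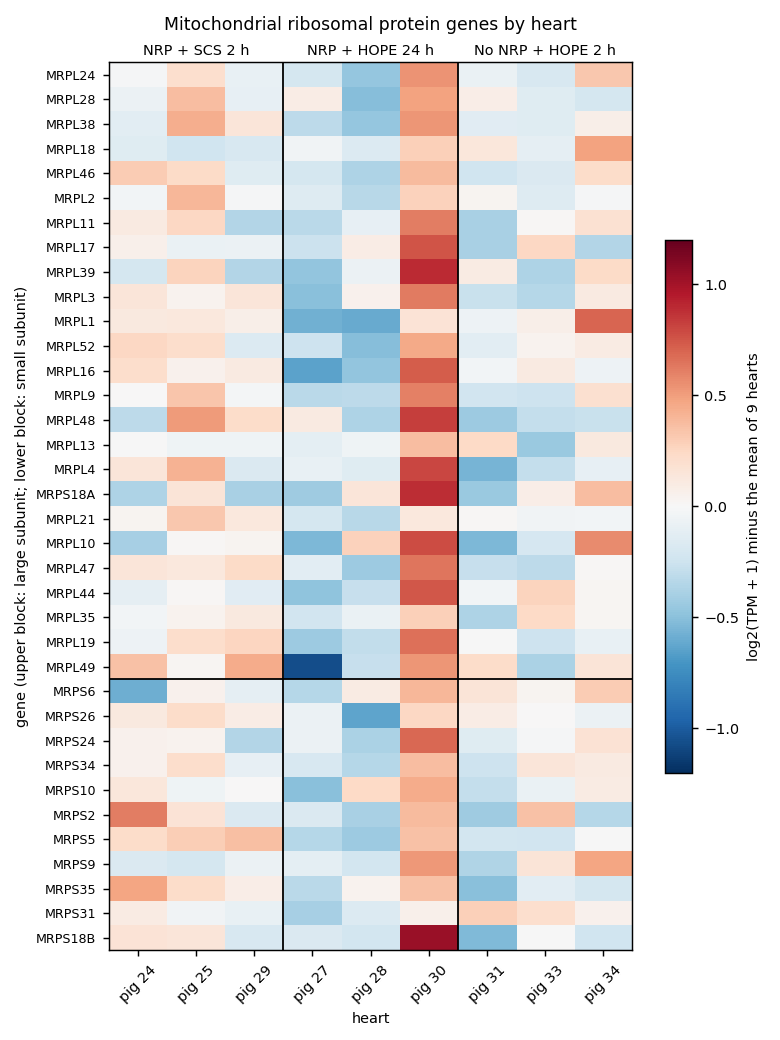
Heat map of the 36 mitochondrial ribosomal protein genes tested (one gene per line, large subunit above and small subunit below, each by falling mean TPM) in the 9 hearts, with color for log2(TPM + 1) minus the gene's mean over the 9 hearts. Pig 30 is above the mean for all 36 genes, whereas pigs 27 and 28 of the same group are above it for 2 and 7 genes.

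**Figure D3:**
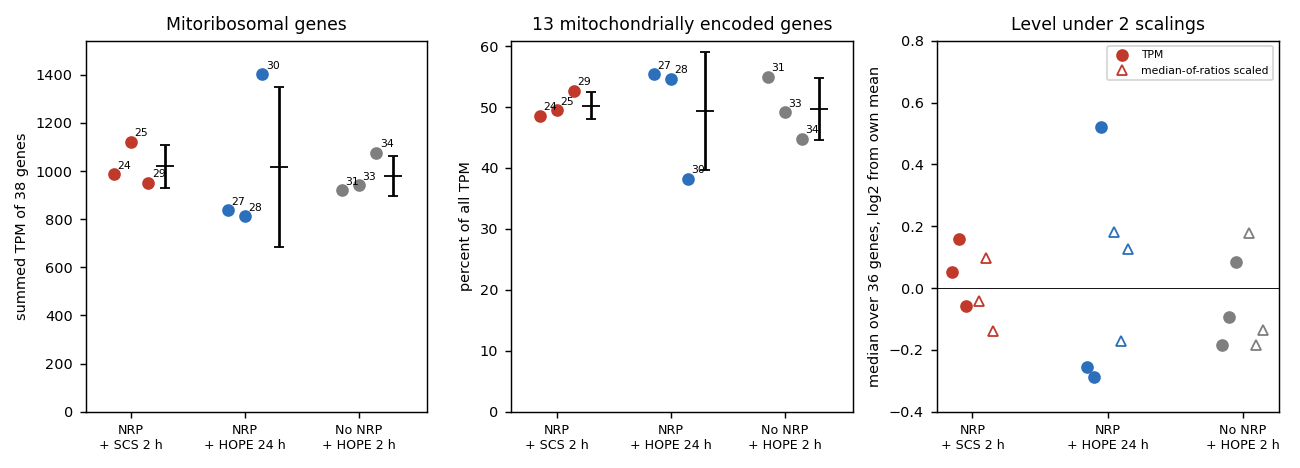
Per heart and group, the summed TPM of the 38 mitochondrial ribosomal protein genes (left), the share of all TPM held by the 13 mitochondrially encoded protein-coding genes (middle) and the median log2 difference of the 36 tested members from their own mean under TPM and median-of-ratios scaling (right). Points are single hearts labelled by pig, bars in the first panels are mean ± SD (n = 3), and pig 30 has the highest sum (1402 TPM) and the lowest mitochondrially encoded share (38.2%).

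The subunits kept nearly the same proportion in all groups. Large subunit genes summed to 662 ± 236, 665 ± 69.6 and 624 ± 65.9 TPM and small subunit genes to 355 ± 97.2, 355 ± 20.4 and 355 ± 22.4 TPM in Groups 1, 2 and 3 (SD, n = 3 each). The ratio of the large to the small sum ran from 1.63 in pig 33 to 2.00 in pig 30. Neither sum separated the groups.

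Group 1 was compared with Group 2 to ask how HOPE for 24 h after NRP compares with short SCS. Levels of 0 of the 36 members changed at the thresholds of the study's methods (log2 fold change beyond ±1 and adjusted p under 0.05, here from a two-sided limma test on log2(TPM + 1)), and the background was 0.0255% of all genes tested. At an unadjusted p under 0.05 there were again 0 members, against 4.97% of all genes, and the groups overlapped for every member, against 9.82% of genes without overlap. The smallest adjusted p among the members was 0.993. Single members were also set against an exact permutation test of log2(TPM + 1), two-sided, for which 3 hearts against 3 cannot give less than 0.1. Fold changes on the log2(TPM + 1) scale, which understates the change of low genes, ran from -0.54 for MRPL49 to 0.40 for MRPS18A, and the median of their absolute size was 0.19, compared with 0.25 over all genes. With a pseudocount of 0.1 the value of MRPL49 was -0.88.

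By direction, 15 members were higher and 21 lower in Group 1, with a median log2 fold change of -0.07 (all genes -0.12), but this sign turned with the scaling, to 0.07 under median-of-ratios (21 members higher) and to 0.02 under quantile normalization (20 higher). With array weights it was -0.29 with 28 members lower (all genes -0.19). The large subunit had a median of -0.06 and the small subunit one of -0.11. The 95% interval of the difference in log2(TPM + 1) stayed within ±1 for 31 members. It passed ±1 for MRPL1, MRPS5, MRPS18A, MRPL10 and MRPL49, so that a change of that size was not excluded by the intervals of these 5 genes. Since 1 is added to TPM, ±1 is a doubling or a halving of TPM + 1. The same step is a larger change in TPM itself, most of all in low genes, so the intervals of the 31 do not exclude a doubling or halving of TPM.

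Of the cell type markers tested, HBB and S100A9 alone passed an unadjusted p under 0.05 between these groups, where 4.97% of all genes did. HBB was higher and S100A9, a neutrophil marker, lower in Group 1 at an unadjusted p under 0.05 (background 1.82% higher and 3.14% lower, log2 fold changes 1.27 and -1.35, limma adjusted p = 0.943 and 0.792), and HBB stood at 0.80 without pig 30 and 2.05 without pig 27. Neutrophil markers summed to 0.357, 1.29 and 3.89 TPM in Group 1 and to 13.2, 5.58 and 2.02 TPM in Group 2. All 5 endothelial markers tested were lower by value in Group 1 (median -0.47), 0 of them at an unadjusted p under 0.05 and 2 without overlap (background 7.32% lower), with sums of 204, 333 and 435 TPM in Group 1 and 438, 419 and 454 TPM in Group 2. Their part in the mitoribosomal values was not tested.

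Among the members lower by value, the smallest p belonged to MRPS5, MRPL1 and MRPL49. MRPS5 (ENSSSCG00000008113), a small subunit protein of bacterial descent, had 22.6, 23.8 and 25.0 TPM in Group 2 and 14.9, 14.0 and 24.9 TPM in Group 1, a log2 fold change of -0.44 (95% interval -1.06 to 0.19, limma adjusted p = 0.993, exact permutation p = 0.3). Pigs 27 and 28 were below all Group 2 hearts and pig 30 level with the highest of them. MRPL1 (ENSSSCG00000008990), the counterpart of bacterial ribosomal protein L1, showed the same arrangement, with 24.9, 25.1 and 24.1 TPM in Group 2 and 15.0, 14.7 and 25.9 TPM in Group 1 (log2 fold change -0.44, interval -1.11 to 0.23, limma adjusted p = 0.993, exact permutation p = 0.4). The Group 2 hearts lay close together, pigs 27 and 28 well below them and pig 30 just above.

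MRPL49, of the large subunit, had 3.12, 2.27 and 3.38 TPM in Group 2 and 0.541, 1.67 and 3.66 TPM in Group 1 (log2 fold change -0.54, interval -1.40 to 0.32, limma adjusted p = 0.993, exact permutation p = 0.4). Pig 27 was the single heart under 1 TPM, and pig 30 was the highest. Without pig 30, 5 members (MRPL1, MRPL16, MRPL38, MRPL49 and MRPS5) passed an unadjusted p under 0.05 and were lower in the remaining Group 1 hearts, as 10.7% of all genes did in either direction. The values of MRPS5, MRPL1 and MRPL49 were then -0.68, -0.69 and -0.94, whereas without pig 28 MRPS5 stood at -0.29 and without pig 27 MRPL49 at -0.14. The median of the members without pig 30 was -0.31 with 33 lower, and the median of all genes was also -0.31. No member passed the adjusted threshold without pig 30.

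Among those higher by value it belonged to MRPS18A, MRPS6 and MRPL18. MRPS18A had 8.93, 13.3 and 8.82 TPM in Group 2 and 8.53, 13.2 and 22.7 TPM in Group 1 (log2 fold change 0.40, interval -0.39 to 1.19, limma adjusted p = 0.993, exact permutation p = 0.7). Pigs 27 and 28 covered nearly the same range as Group 2, and pig 30 alone lay above it. It was the single member at an unadjusted p under 0.05 after median-of-ratios scaling or quantile normalization. MRPS6 and MRPL18, the counterpart of bacterial L18, had log2 fold changes of 0.27 (interval -0.33 to 0.87) and 0.22 (interval -0.36 to 0.80), with overlapping hearts. Without pig 30 the log2 fold change was 0.06 for MRPS18A and 0.09 for MRPL18, and without pig 27 it was 0.72 for MRPS18A and 0.47 for MRPS6, which stood at 0.08 without pig 24.

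**Figure D4:**
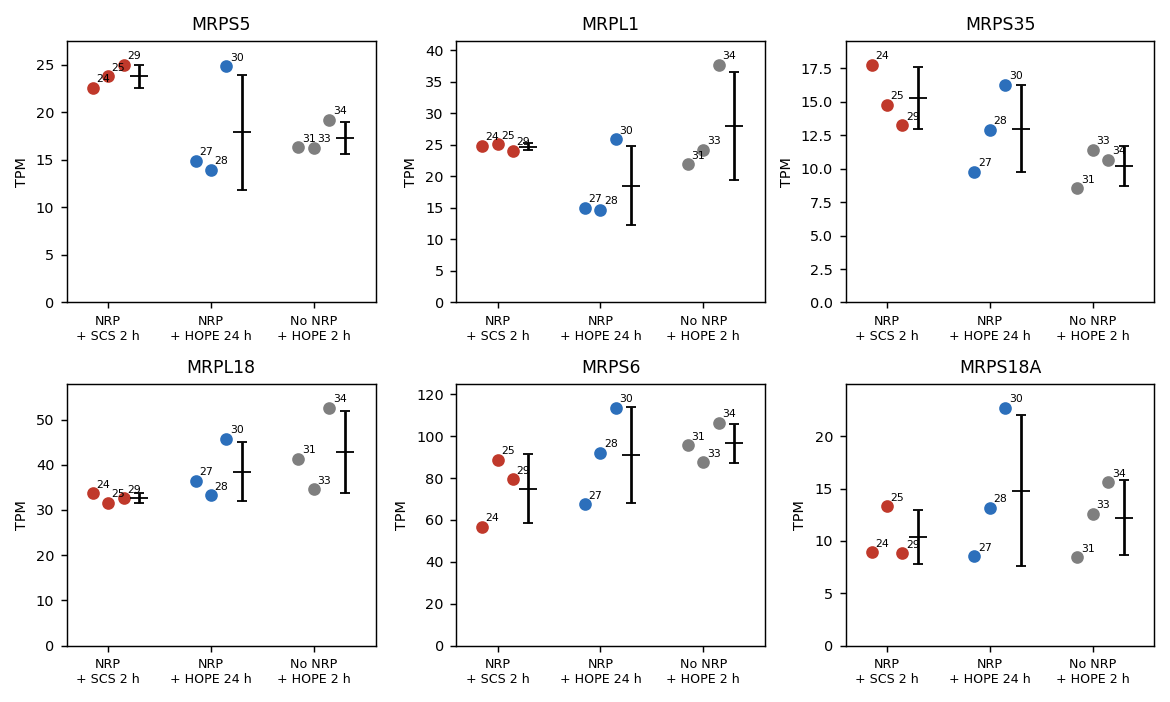
TPM of MRPS5, MRPL1, MRPS35, MRPL18, MRPS6 and MRPS18A in each heart by group, with mean ± SD (n = 3) and points labelled by pig. Group 3 hearts lie below all Group 2 hearts for MRPS5 and MRPS35 and above them for MRPL18, and pig 30 lies apart from pigs 27 and 28 for MRPS5, MRPL1 and MRPS18A.

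Group 3 was compared with Group 2 in the study's assessment of what NRP contributes. With limma, 0 of 36 members passed the adjusted threshold (background 0.0509%) and 0 passed an unadjusted p under 0.05 (background 7.22%), and the smallest adjusted p was 0.75. Fold changes ran from -0.54 for MRPS35 to 0.38 for MRPS6 on the log2 scale, with a median absolute size of 0.19 compared with 0.27 over all genes. The intervals of 28 members stayed within ±1, and those of the other 8, MRPS2, MRPS5, MRPL48, MRPL4, MRPS35, MRPL47, MRPS18B and MRPL49, reached below -1, the lowest to -1.22.

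Among the cell type markers tested, HBB, ALAS2 and S100A9 alone passed an unadjusted p under 0.05 in this comparison, where 7.22% of all genes did. Erythroid markers summed to 71.4, 133 and 79.4 TPM in Group 2 and 223, 373 and 222 TPM in Group 3, without overlap, and to 73.9, 343 and 425 TPM in Group 1. The HOPE perfusate of Groups 1 and 3 contained red blood cells, and its part in these markers was not tested. Of the 3 found, HBB and ALAS2 were tested and both were higher in Group 3 at an unadjusted p under 0.05 (background 2.57% higher, log2 fold changes 1.52 and 1.14, limma adjusted p = 0.516 and 0.658), while SLC4A1 was below 0.1 TPM in every heart. Neutrophil markers summed to 13.2, 5.58 and 2.02 TPM in Group 2 and 0.343, 0.199 and 0 TPM in Group 3, and S100A9, the one tested of 3, was lower at that level (background 4.65% lower, log2 fold change -2.17, limma adjusted p = 0.140), with CSF3R listed at 0 in all hearts. Of 5 fibroblast markers 0 passed an unadjusted p under 0.05, and 2 were higher without overlap, as were ACTA2 of smooth muscle and NKG7 of lymphocytes (background 4.44% higher). PDGFRA of fibroblasts (-0.40) and CNN1 of smooth muscle (-0.13) were lower by value, as 1 of 5 and 1 of 3 markers tested. Of 4 macrophage markers 1 was lower without overlap (background 10.3% lower). The part of these cells in the values of the mitoribosomal genes and of their partner genes was not tested.

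In this comparison 11 members were higher and 25 lower in Group 3, with a median of -0.13 (all genes -0.07), which was -0.03 with 16 higher under median-of-ratios scaling and -0.0026 with 18 higher under quantile normalization. The groups did not overlap for 6 members (16.7%), 5 of them lower and 1 higher in Group 3, beside 14.7% of all genes tested, 10.3% lower and 4.44% higher. The exact permutation test of any such gene gives its smallest possible value, p = 0.1.

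Of the 5 non-overlapping members that were lower, MRPS35 had the largest difference. This small subunit protein without a bacterial counterpart (ENSSSCG00000000547) had 17.8, 14.8 and 13.3 TPM in Group 2 and 8.52, 11.4 and 10.7 TPM in Group 3 (log2 fold change -0.54, interval -1.17 to 0.09, limma adjusted p = 0.75, exact permutation p = 0.1). All Group 3 hearts were thus below the lowest Group 2 heart. It passed an unadjusted p under 0.05 under median-of-ratios scaling, after quantile normalization, after removal of the mitochondrially encoded genes, and in the fit without pig 30.

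MRPS5 had 16.3, 16.3 and 19.2 TPM in Group 3, all below the Group 2 hearts given above (log2 fold change -0.44, interval -1.07 to 0.18, limma adjusted p = 0.821, exact permutation p = 0.1). It passed an unadjusted p under 0.05 after removal of the mitochondrially encoded genes and with array weights, as did 11.6% and 15.8% of all genes. MRPL47, a large subunit protein related to bacterial L29, had 10.3, 10.2 and 11.03 TPM in Group 2 and 7.48, 7.26 and 9.40 TPM in Group 3 (log2 fold change -0.36, interval -1.05 to 0.34). The gaps were narrower for the other two. MRPS26 had 80.8, 86.5 and 79.3 TPM against 79.2, 74.6 and 70.5 TPM in Group 3, and MRPL21, the member that varied least over all hearts, had 12.5, 15.5 and 13.4 TPM against 12.4, 11.8 and 11.9 TPM. In both genes the nearest hearts of the 2 groups almost met, and the log2 fold changes were -0.14 and -0.18.

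MRPL18 (ENSSSCG00000004047) was the non-overlapping member that was higher in Group 3, with 33.7, 31.6 and 32.6 TPM in Group 2 and 41.3, 34.6 and 52.6 TPM in Group 3 (log2 fold change 0.36, interval -0.22 to 0.94, limma adjusted p = 0.842, exact permutation p = 0.1). Pig 33 lay just above Group 2 and pig 34 farthest from it. After quantile normalization MRPL18 and MRPS6 passed an unadjusted p under 0.05, together with MRPS35. MRPS6 had the largest positive fold change (0.38, interval -0.22 to 0.98, limma adjusted p = 0.842, exact permutation p = 0.2), but pig 25 of Group 2 was above pig 33 of Group 3. MRPL48, a large subunit protein, was lower by value (log2 fold change -0.47, interval -1.22 to 0.27), with 11.7, 21.5 and 17.4 TPM in Group 2 and 10.6, 11.96 and 12.1 TPM in Group 3, and pig 24 fell within the range of Group 3. MRPS9, of the small subunit, had 15.5, 15.0 and 16.7 TPM and 13.4, 19.7 and 24.8 TPM (log2 fold change 0.24), and its Group 3 hearts lay on both sides of Group 2. Several of these values moved with a single heart. Without pig 34, MRPL18 was at 0.21 and MRPS9 at 0.05, and MRPS9 was at 0.47 without pig 31. MRPS6 was at 0.20 without pig 24, and MRPL48 was at -0.70 without pig 24 and -0.29 without pig 25.

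**Figure D5:**
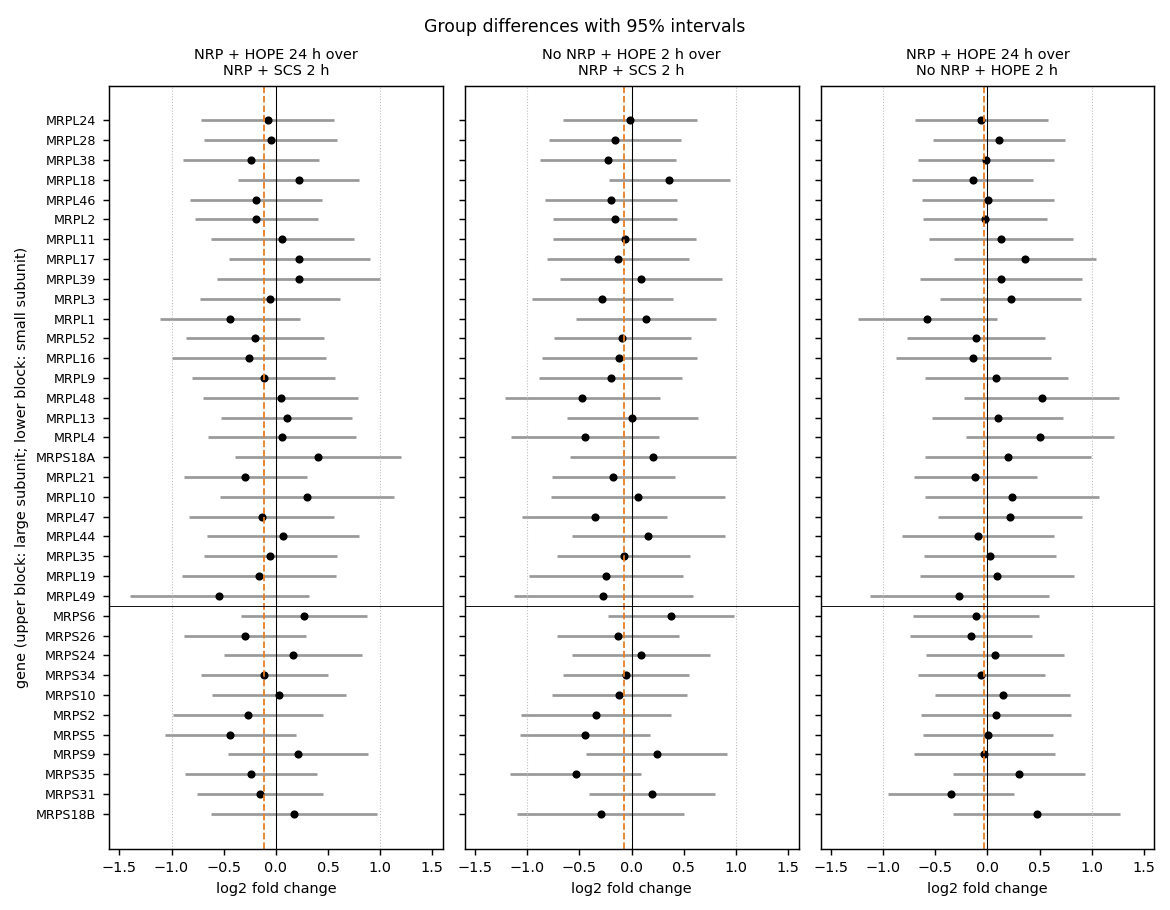
Log2 fold change on log2(TPM + 1) with its 95% interval (limma) for each of the 36 mitochondrial ribosomal protein genes tested, in the comparisons of Group 1 with Group 2, Group 3 with Group 2 and Group 1 with Group 3. Every interval includes 0, and the fold changes lie between -0.57 and 0.52.

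Groups 1 and 3, which differ in NRP and in the duration of HOPE, were not a main comparison of the study and share their hearts with the comparisons above. In limma 0 of 36 members passed the adjusted threshold (background 0.0509%) and 0 an unadjusted p under 0.05 (background 6.01%), and the groups overlapped for every member (7.48% of all genes without overlap). By value 21 members were higher and 15 lower in Group 1, with a median log2 fold change of 0.05 (all genes -0.03). This sign stayed under the 3 other scalings but turned with array weights (-0.13), without pig 30 (-0.23) and without pig 31 (-0.03). The intervals of 29 members stayed within ±1.

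Here ACTA2, CLEC14A and ACTC1 alone passed an unadjusted p under 0.05 among the cell type markers tested, where 6.01% of all genes did. At an unadjusted p under 0.05, ACTA2 of smooth muscle and CLEC14A of endothelium were lower in Group 1 than in Group 3 and ACTC1 of cardiomyocytes was higher (background 3.23% lower and 2.78% higher, log2 fold changes -1.28, -0.83 and 0.76, limma adjusted p = 0.402, 0.826 and 0.829), and the groups did not overlap for ACTA2 (background 4.51% lower). The 6 cardiomyocyte markers were split, 3 higher and 3 lower by value in Group 1 with a median of 0.04, and ACTC1 stood at 0.37 without pig 33 and 0.47 without pig 30. ACTA2 stood at -0.81 without pig 27, and CLEC14A at -0.51 without pig 27 and -0.50 without pig 34. Smooth muscle markers summed to 214, 382 and 387 TPM in Group 1 and 415, 466 and 418 TPM in Group 3, and MYH11 was listed at 0 in all hearts. By value, 1 of 3 smooth muscle markers tested (CNN1, 0.40) and 1 of 5 endothelial markers (KDR, 0.10) went the other way and were higher in Group 1. Their part in the values of the mitoribosomal genes and of their partner genes was not tested.

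MRPL1 had the smallest p, with 21.9, 24.2 and 37.7 TPM in Group 3 and the Group 1 hearts at 15.0, 14.7 and 25.9 TPM (log2 fold change -0.57, interval -1.25 to 0.10, limma adjusted p = 0.861, exact permutation p = 0.3). Pigs 27 and 28 were below all Group 3 hearts and pig 30 was among them. MRPL1 and MRPL4 passed an unadjusted p under 0.05 under median-of-ratios scaling, after quantile normalization and after removal of the mitochondrially encoded genes, and MRPL1 also with array weights and, together with MRPL16, without pig 30. The value of MRPL1 was -0.35 without pig 34. MRPS31, a small subunit protein without a bacterial counterpart, had 8.68, 8.15 and 7.21 TPM in Group 3 and 5.0, 6.10 and 7.28 TPM in Group 1 (log2 fold change -0.35), with pig 30 just above pig 34. The value of MRPL49 was -0.27, with -0.67 without pig 30 and 0.13 without pig 27, and that of MRPS31 was -0.23 without pig 27.

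Among the members higher by value in Group 1 than in Group 3, MRPL4, the counterpart of bacterial L4, had 11.8, 11.3 and 22.7 TPM in Group 1 and 8.23, 10.1 and 11.7 TPM in Group 3 (log2 fold change 0.50, interval -0.20 to 1.21, limma adjusted p = 0.931, exact permutation p = 0.2). Pig 34 lay between pigs 28 and 27, and pig 30 stood well above both groups' other hearts. MRPL48 and MRPS18B had log2 fold changes of 0.52 (interval -0.22 to 1.26) and 0.47 (interval -0.33 to 1.27). MRPS18B had 2.66, 2.54 and 7.42 TPM in Group 1 and 1.85, 3.11 and 2.49 TPM in Group 3, with pig 30 far above all others. All 3 values rested on pig 30, without which they were 0.20 for MRPL4, 0.20 for MRPL48 and 0.06 for MRPS18B, and without pig 28 MRPL48 reached 0.80.

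Further proteins of the mitoribosome, 3 in all, carry other names in the table: DAP3 and PTCD3 (also called MRPS29 and MRPS39) and CHCHD1 (MRPS37), all of the small subunit. DAP3, which is also known as a death-associated GTP-binding protein, had 23.5, 24.7 and 22.5 TPM in Group 2, 16.7, 22.3 and 41.5 TPM in Group 1 and 16.4, 24.2 and 31.9 TPM in Group 3. All 3 genes were highest in pig 30, and none passed an unadjusted p under 0.05 in any comparison, with log2 fold changes between -0.27 and 0.30. Through the RefSeq annotation of Sscrofa11.1, 9 rows without a symbol in the table could be named as mitoribosomal genes (MRPL15, MRPL22, MRPL30, MRPL43, MRPL45, MRPL50, MRPL54, MRPS27 and MRPS33). MRPL45 was listed at 0 in all hearts, and of the 8 tested 2 were lower in Group 3 than in Group 2 without overlap (background 10.3% lower). The medians of the 8 were -0.04, -0.07 and 0.05 in the 3 comparisons. In limma 0 of them passed an unadjusted p under 0.05 (background 4.97%, 7.22% and 6.01%). MRPL22, the counterpart of bacterial L22, came nearest, with 22.8, 34.7 and 21.3 TPM in Group 2 and 43.5, 46.2 and 33.5 TPM in Group 3 (log2 fold change 0.65, limma adjusted p = 0.699), where pig 34 lay just within the range of Group 2.

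The genes that work with the mitoribosome were read in the same fits, and none of them passed the adjusted threshold. Among 12 mitochondrial translation factors 0 passed an unadjusted p under 0.05 in the 3 comparisons, and neither did any of the 13 mitochondrially encoded genes or the 33 cytosolic ribosomal protein genes. The background was 4.97%, 7.22% and 6.01% of all genes tested, at which few genes of such short lists would pass. Of 16 genes for assembly of the mitoribosome and modification of its RNA, NOA1, a GTPase needed for small subunit assembly, was lower in Group 3 than in Group 2 at an unadjusted p under 0.05 (background 4.65% lower, log2 fold change -1.02, limma adjusted p = 0.534), with 9.08, 6.51 and 5.33 TPM against 3.18, 3.08 and 2.37 TPM and no overlap (background 10.3% lower). Of 16 genes for charging mitochondrial tRNAs (tRNA synthetases, and QRSL1 and GATB of the glutamyl-tRNA amidotransferase), TARS2, the threonyl-tRNA synthetase, was lower in Group 1 than in Group 3 at the same level (background 3.23%, log2 fold change -0.79, limma adjusted p = 0.658).

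The genes of mitochondrial transcription and RNA processing had the most values below an unadjusted p of 0.05. In Group 3 compared with Group 2, where HBB, ALAS2 and S100A9 also passed that level, 12 of 15 were lower with a median log2 fold change of -0.24 (all genes -0.07). Of the 15, 6 were lower without overlap (background 10.3%). At an unadjusted p under 0.05, 3 were lower (background 4.65%) and 0 higher (background 2.57%), namely ELAC2, which trims the 3′ ends of mitochondrial tRNAs (log2 fold change -1.41, limma adjusted p = 0.414), TFB2M, a factor for starting mitochondrial transcription (-1.34, adjusted p = 0.583), and LRPPRC, which stabilizes mitochondrial messenger RNA (-0.73, adjusted p = 0.627). TFB2M had 11.4, 5.52 and 7.01 TPM in Group 2 and 5.34, 0.40 and 3.47 TPM in Group 3, and stood at -0.70 without pig 33. LRPPRC had 23.3, 20.6 and 21.4 TPM in Group 2 and 10.5, 12.6 and 15.4 TPM in Group 3, so that its groups were well apart. In Group 1 its hearts stood at 14.0, 20.9 and 25.5 TPM. FASTKD1, a mitochondrial RNA-binding protein, and TFB2M were higher in Group 1 than in Group 3 at an unadjusted p under 0.05 (background 2.78%, log2 fold changes 1.25 and 1.22, limma adjusted p = 0.402 and 0.795), and TFB2M stood at 0.58 without pig 33. ACTA2, CLEC14A and ACTC1 also passed that level between these groups.

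Of 8 regulators of mitochondrial biogenesis tested, all were lower by value in Group 3 than in Group 2 (median -0.32), as were 6806 of the 11782 genes tested (median -0.07), 0 of the regulators at an unadjusted p under 0.05 in limma, and GABPB1, a subunit of the nuclear respiratory factor GABP, was higher in Group 1 than in Group 3 at that level (background 2.78% higher, log2 fold change 0.80, adjusted p = 0.826). PPARGC1A, the gene of the coactivator PGC-1α, was listed at 0 in all hearts. Of 45 nuclear-encoded respiratory chain genes, UQCRC2, a core subunit of complex III, was the one that passed an unadjusted p under 0.05, and it was higher in Group 1 than in Group 2 (background 1.82% higher, log2 fold change 0.94, limma adjusted p = 0.954) and in Group 3 (background 2.78% higher, log2 fold change 1.58, adjusted p = 0.300). Its TPM were 60.9, 65.0 and 116 in Group 1, 26.9, 81.6 and 28.7 in Group 2 and 26.2, 23.2 and 26.1 in Group 3, so that pig 25 lay within the range of Group 1, and without it the difference from Group 2 was 1.44.

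In the same RefSeq annotation, 37 of the 38 members were found, and 14 of them overlap the span of another gene, among them MRPS6 with SLC5A3, MRPL28 with TMEM8A, MRPS26 with GNRH2, MRPL1 with CNOT6L, MRPL47 with ACTL6A, MRPS18B with PPP1R10, MRPL19 with GCFC2, MRPL49 with FAU and SYVN1, MRPL27 with EME1 and MRPS2 with an unnamed locus. Whether the counting used strand is not given in the sources used here, so the split of reads between these pairs is uncertain.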

How the data were processed

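RNA sequencing of 1 apex biopsy per heart was analysed for 9 hearts, 3 per group. Groups were taken from the labels. A further 9 of the 18 sample columns could not be tied to a sample and were not used. Per the submitters' processing notes and the methods, the authors used bcl2fastq 2.17, Trimmomatic 0.36, STAR 2.5.2b and featureCounts of Subread 1.5.2, and DESeq2 for their own comparisons. RNA with an integrity number above 6 was sequenced. The authors deposited TPM values, which sum to 1000000 per heart. The genome build and the gene lengths are not given in the sources used here, so no coordinates are printed. Depth is unknown, so no counting intervals or floors are given. ERCC spike-in had been added, but 0 spike-in rows are listed.

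Since TPM are no counts, log2(TPM + 1) was fitted with limma 3.58.1 (R 4.3.3, eBayes with trend, two-sided tests), with all 9 hearts and a mean for each group. Genes entered with a TPM of 1 or more in 3 or more hearts (11782 genes), and Benjamini-Hochberg adjustment ran over all of them in each comparison. The fit was tested on simulated data. As alternatives, the pseudocount was set to 0.1, the filter was dropped or replaced by a mean TPM of 5 or more, TPM were rescaled by median-of-ratios or by quantile normalization or after removal of the 13 mitochondrially encoded genes, the fit was limited to the 6 hearts in question, run with no trend, with robust eBayes or with array weights, and repeated with each heart omitted. Summaries used Python 3.11.15, numpy 2.4.6, pandas 2.3.3, scipy 1.17.1 and matplotlib 3.10.9.

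The members and gene lists were chosen with earlier results of these data known. Members were named by level (5 highest, 5 lowest), by SD (3 largest, 3 smallest), by p (3 smallest per comparison and direction), for failing the filter, or as MRPS18 paralogs. Those without overlap between groups, the members that passed under an alternative or whose interval passed ±1, those with overlapping gene spans and MRPL22, as well as the cell type markers given with values, were named after their values were seen. Nothing says that the hearts were processed separately after biopsy, and p-values measure the spread between hearts.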

Additional observations from a re-analysis of the deposited data

How the results depend on the processing

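With limma, 0 members passed the adjusted threshold in each of the 3 comparisons under all 19 alternatives. The count at an unadjusted p under 0.05, 0 in each comparison as reported, was for Group 1 against Group 2 1 under median-of-ratios scaling, 1 under quantile normalization, 1 without the mitochondrially encoded genes and 4 with array weights (MRPL1, MRPL38, MRPS26 and MRPS5), and 0 to 5 with a heart left out. For Group 3 against Group 2 these counts were 1, 3, 2 and 1, and 0 to 1 with a heart left out. For Group 1 against Group 3 they were 2, 2, 2 and 1, and 0 to 2 with a heart left out. Without pig 30 the count was 5, 1 and 2 in the 3 comparisons, beside 10.7%, 9.43% and 9.49% of all genes. Over all genes the share at an unadjusted p under 0.05 rose as well, to 8.53%, 12.4% and 11.7% under median-of-ratios scaling, to 8.5%, 12.3% and 11.4% under quantile normalization, to 8.5%, 11.6% and 9.35% without the mitochondrially encoded genes and to 15.4%, 15.8% and 15.9% with array weights, in the order of comparisons above.

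The median log2 fold change of the members with a heart left out ran from -0.31 (without pig 30) to 0.04 (without pig 27) for Group 1 against Group 2, from -0.17 to -0.08 for Group 3 against Group 2 and from -0.23 to 0.15 for Group 1 against Group 3. For Group 3 against Group 2 it was -0.0026 under quantile normalization. Median-of-ratios scaling moved the median of all genes in Group 1 against Group 2 from -0.12 to 0.00. MRPL49 ranged from -0.67 to 0.13 in Group 1 against Group 3, with the sign turning without pig 27. The number of members highest in pig 30 was 28 as reported, 10 under median-of-ratios scaling, 10 under quantile normalization and 15 without the mitochondrially encoded genes. The number lowest in pig 27 was 9 as reported and 1 under each of the first 2. The cause was not tested. No paired analysis was possible because no pig gave hearts to more than 1 group.

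With 3 hearts per group, the 95% intervals of the members had a median half-width of 0.67 on the log2 scale, and smaller differences were mostly not detectable. Each gene had 1 variance shared by all groups, so the spread within Group 1 also entered the comparison of Groups 3 and 2. The pooled SD of the heart medians was 0.12 in that comparison and 0.33 and 0.34 in those with Group 1. In the fit limited to the 6 hearts of Groups 3 and 2, 0 members passed an unadjusted p under 0.05 (9.18% of all genes). TPM give shares of the RNA of a biopsy and no absolute amounts.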
